A study of Saccharomyces cerevisiae
Saccharomyces paradoxus with 24 samples.

Results

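The rDNA region of chromosome XII held 21 of the 1118 windows in which Rap1 had been called bound before its depletion. The windows were taken by position alone, as all those in the stretch of chromosome XII that holds the rDNA, and run from chrXII:451769 to 490322 on the modified sacCer3 coordinates. Each window spans 150 bp on either side of a peak summit. The nucleolar rDNA of budding yeast is a long tandem array, of which the reference carries only a pair of 35S units. RNA polymerase I transcribes each unit into a 35S precursor, which is cut into the 18S, 5.8S and 25S rRNAs after removal of the external and internal transcribed spacers (ETS and ITS), while RNA polymerase III transcribes the 5S gene from the spacer between units. TAR1 is an open reading frame antisense to the 25S gene, and its product is a mitochondrial protein. Rap1 is best known as an activator at ribosomal protein genes and as a component of silencers and telomeres.

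The study removed Rap1 from the nucleus by anchor-away, in which rapamycin tethers an FRB-tagged protein to an FKBP12-tagged ribosomal protein that leaves the nucleus. Rap1 ChIP-seq was carried out through a V5 tag at 0, 5, 10, 15, 20, 30, 45 and 60 min of 7.5 µM rapamycin in 2 strain isolates (replicates 1 and 2), which gave 16 ChIP libraries, with an input library of each isolate at 0 min. The 0 min cells received DMSO, for which the labels give 60 min. All groups shared the same W303-type genotype: Rap1(134)-FRB_2xV5 and RPL13A-2xFKBP12::TRP1 for the tether, fpr1::NAT and TOR1(S1972I) for rapamycin resistance, a modified HML (hmlalphadelta::UniqueHMLwithSNPs), hmrdelta::HygMX, bar1delta::k.l.URA3 and the markers can1-100, trp1-1, his3-11,15, ura3, lys2 and a leu2 allele. S. paradoxus cells carrying V5-tagged Rap1, which had been grown and fixed apart and had not met rapamycin, were added to each fixed sample at 5% by optical density, and signal was given as reads in a window per 1000000 S. paradoxus reads. The 16 ChIP libraries had between 4397759 and 9219038 S. paradoxus reads. Rap1 was tethered but not degraded, and ChIP on a whole culture cannot tell fewer bound cells or repeats apart from less Rap1 on each.

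Along the 35S unit the 21 windows fell into 8 in the 25S gene, 4 in the 18S gene, 4 in the 5′ETS, 2 at ITS2 and 3 outside the units. Of these, 18 were 9 pairs of counterparts, each pair lying at the same place in the first and the second reference unit to within 53 bp. Windows are named below by their distance from the start of the 35S transcript. The window 3.9 kb into the first unit, chrXII:454342-454642, lies inside RDN25-1 with its summit 204 bp before the start of TAR1, which runs on the other strand. The 3 windows outside lay in the spacer, over a 5S gene and near RRT15. The spacer window, chrXII:460414-460714, touches the 3′ end of the second 35S unit. The 5S window, chrXII:481975-482275, covers RDN5-4, which lies past the end of the second 35S unit at chrXII:467569. Its input was only 1.68 and 1.92 times that of the median window outside the rDNA. No window covers RDN5-1, the 5S gene between the units. Values of the 5S window are therefore not those of the 5S gene between the units. The last window, chrXII:490022-490322, lies 234 bp before the start of RRT15, a gene named as a regulator of rDNA transcription. Counterparts could not be separated by their reads. Across the 16 ChIP libraries the ratio of second to first counterpart varied with a coefficient of variation of only 0.437% to 2.34%, and the counts below therefore describe 12 positions rather than 21 separate measurements. How reads that match several copies were placed is not given in the sources used here. The input of the RRT15 window was 51.7 and 50.8 times that of the median window outside the rDNA, the level of a sequence in many copies. Its values are therefore not those of a single locus, and which copies gave its reads was not tested.

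To ask how much Rap1 each repeat carried before depletion, the ChIP signal was divided by the input of the same isolate. The copy number of the array is not corrected in the signal. Because the added S. paradoxus cells carry tagged Rap1 too, equal ChIP and input signals do not mark the level without enrichment. Ratios are therefore read against those of other windows. Raw signal ranked the region near the top of the genome, with 20 of 21 windows among the 50 highest in both isolates at 0 min. Once divided by input, most of the rDNA fell to the bottom. The rDNA windows took 25.4% and 28.7% of all window reads in the 0 min ChIP libraries of replicates 1 and 2, against 67.2% and 67.9% in the inputs. Input at the 20 windows other than 5S was 50.8 to 180 times the median window outside the region, while the 5S window lay at 1.68 and 1.92 times.

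The median rDNA window had a ChIP-over-input ratio of 0.224 in replicate 1 and 0.180 in replicate 2, against 0.535 and 0.367 for the median of the 1097 windows outside. This placed the median rDNA window at percentiles 1.28 and 2.01 of the windows outside. Of the 21 windows, 19 lay under the outside median in both isolates. Centred on the median window of each isolate, 18 of the 21 were lower by the limma adjusted p, with a median difference of −1.13 on the log2 scale, beside −0.01 over all windows. Of all 1118 windows 37.8% were called below and 41.1% above the median, so a call alone is common. The rDNA windows stood apart by their place in the distribution, with 18 of 21 in replicate 1 and 16 in replicate 2 under the 5th percentile of the windows outside. The windows were called by the authors as peaks over an untagged control at 0 min, and that control was not analysed here, so how much of the low ratio is signal without Rap1 was not tested.

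The 25S window before TAR1 was the exception within the 35S unit. Its ChIP signal at 0 min was 14331 in replicate 1 and 23716 in replicate 2, against 24083 and 51930 in the inputs. The ratios of 0.595 and 0.457 stood at percentiles 55.5 and 60.2 of the windows outside. Its counterpart had ratios of 0.595 and 0.454. Relative to the median window the TAR1 window was higher by 0.25 ± 0.12 (log2, SE, n = 2; limma adjusted p = 0.046) and its counterpart by 0.24 ± 0.12 (limma adjusted p = 0.050). The spread was pooled over all windows in this fit of ChIP over input. Its standard errors and p-values therefore do not measure the spread at a single window. The call on the TAR1 window is lost when ratios are centred on the windows outside the rDNA.

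No other position in the unit came near it. The next 25S window, 4.6 kb from the start, had ratios of 0.280 and 0.236, the one at 5.6 kb had 0.219 and 0.183, and the one at 6.5 kb had 0.224 and 0.181. At ITS2 the ratios were 0.249 and 0.181. In the 18S gene they were 0.228 and 0.178 at 1.9 kb and 0.216 and 0.158 at 1.1 kb. The lowest values were those of the 5′ETS, the leader of the 35S transcript. They were 0.195 and 0.135 at 0.4 kb and 0.171 and 0.122 at 0.2 kb, and relative to the median window the one at 0.2 kb was at −1.60 ± 0.12 (log2, SE, n = 2; limma adjusted p = 7.4e-39). In both isolates the ratio thus declined from the TAR1 window toward the promoter end of the unit.

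**Figure D1:**
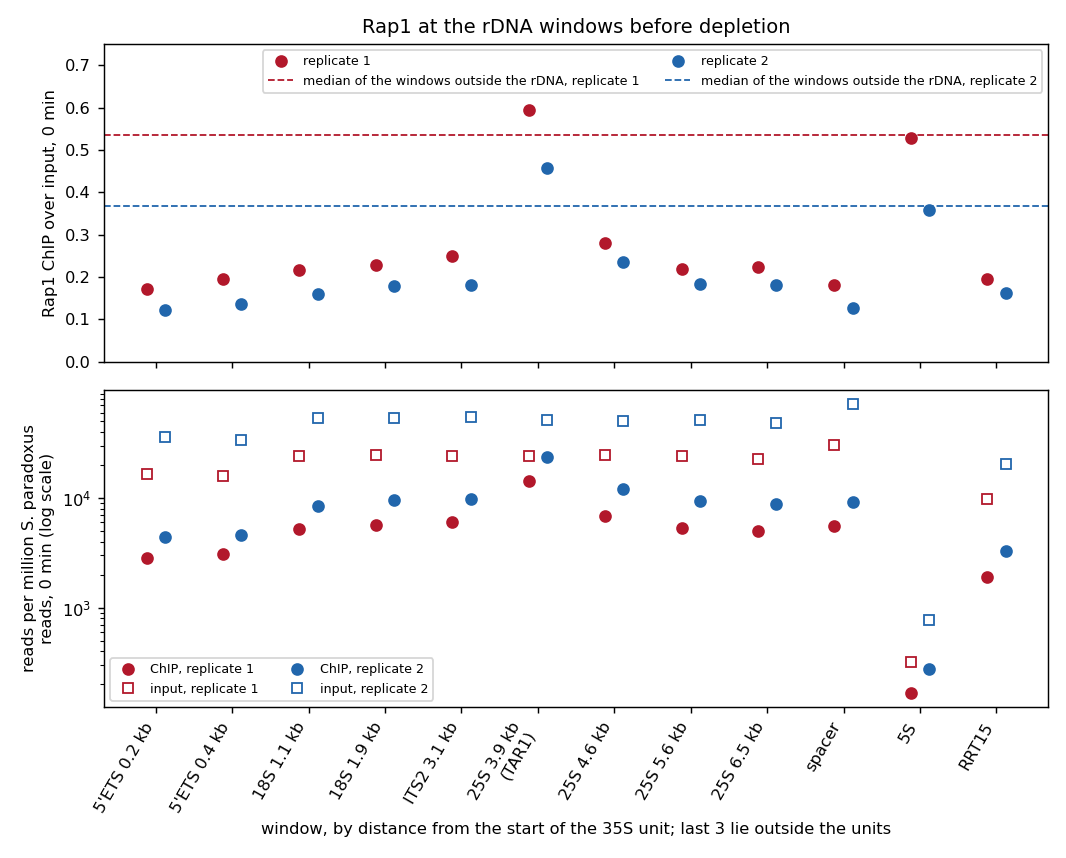
Upper panel, Rap1 ChIP over input at 0 min (linear axis) at the 12 positions, ordered by distance from the 35S start, with points for replicates 1 and 2 and dashed lines at the median of the windows outside the rDNA. Lower panel, the ChIP (filled) and input (open) signals behind each ratio, on a log axis. The TAR1 window, at 0.595 and 0.457, and the 5S window, at 0.529 and 0.359, stand near the dashed lines of 0.535 and 0.367, while the other positions lie between 0.122 and 0.280.

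Outside the 35S units the 3 windows differed from each other. The 5S window had 168 and 277 units of ChIP signal, against 317 and 770 in the inputs, and its ratios of 0.529 and 0.359 were those of a median window (log2 difference −0.01 ± 0.12, limma adjusted p = 0.94). It was the thinnest of the 21, with 217 to 1401 reads per ChIP library, against 4144 to 120153 at the other windows. The RRT15 window had 1903 and 3301 units of ChIP signal, against 9740 and 20408 in the inputs, a ratio of 0.195 and 0.162. The spacer window had the highest input of the region and a ratio of 0.181 and 0.127. Windows at tRNA genes, which are also transcribed by RNA polymerase III, had median ratios of 0.453 and 0.302, and windows within 300 bp upstream of an open reading frame had 1.41 and 0.913. The study left peaks over tRNA genes or Ty elements out of its residence-time analysis. It knew of no link between Rap1 and RNA polymerase III genes, and held that highly transcribed loci often give ChIP artifacts. Whether this bears on the rDNA windows was not tested.

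The same values can be set against the 18S windows of each library. This restates the ChIP-over-input ratios of the same libraries and is not separate support for them. With its counterpart the TAR1 window averaged 2.61 and 2.60 times the mean of the 18S windows in the 0 min ChIP libraries. In the inputs it averaged 0.975 and 0.964 times. The 5′ETS windows were at 0.510 and 0.465 times the 18S windows in ChIP, against 0.618 and 0.608 in the inputs. The other 25S windows were at 1.03 and 1.09 in ChIP, against 0.943 and 0.909 in the inputs. The 2 isolates agreed on each of these ratios more closely than ChIP and input did.

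After rapamycin, Rap1 signal was lost across the region, but not at once. At 5 min none of the 21 windows had changed by the limma adjusted p, nor had any at an unadjusted p under 0.05, and the median log2 change was 0.02. No window of the 1118 was called lower or higher (0%). At 10 min 12 of the 21 windows were lower, beside 73.1% of all windows, and none was higher, beside 0.0894%. From 15 min on every rDNA window was lower, beside 94.3% of all windows at 15 and 20 min, 94.8% at 30 min, 95.1% at 45 min and 96.0% at 60 min. The shares called from 15 min on were near those of all windows. The count at 10 min was 19 without the 0 min library of replicate 1, 4 without that of replicate 2 and 6 without the 10 min library of replicate 1. An edgeR quasi-likelihood test on the reads behind the signal, added after the data were seen, also gave 0 windows at 5 min, 12 at 10 min and 21 from 15 min on.

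The 12 windows that were lower at 10 min were the 4 in the 18S gene, the 4 in the 5′ETS, the 2 at ITS2, the spacer and 5S. None of the 8 windows in the 25S gene was called, and neither was RRT15. With the isolate as a block, the count was 13, the added one being the 25S window at 6.5 kb in one unit (log2 change −0.51, limma adjusted p = 0.041 with the block and 0.083 without it). The 25S windows kept a median of 88.6% and 72.5% of their 0 min signal at 10 min in replicates 1 and 2. The 18S windows kept 62.5% and 50.3%, the 5′ETS windows 57.1% and 47.0%, and the ITS2 windows 57.5% and 54.1%. The median window outside kept 50.1% and 46.0%, and the median window upstream of an open reading frame 69.5% and 67.2%.

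The TAR1 window shows the delay library by library. Its signal in replicates 1 and 2 was 14331 and 23716 at 0 min, 16434 and 23812 at 5 min, and 12744 and 18732 at 10 min. It was 7806 and 8456 at 15 min, 5686 and 5510 at 20 min, 6166 and 5823 at 30 min, 5733 and 5010 at 45 min, and 3813 and 5508 at 60 min. The change was −0.25 ± 0.27 at 10 min (log2, SE, n = 2 per time; limma adjusted p = 0.40), −1.18 ± 0.27 at 15 min (limma adjusted p = 1.9e-05) and −2.01 ± 0.27 at 60 min (limma adjusted p = 2.7e-13). All 10 libraries from 15 min on lay below both 0 min libraries. In this fit the standard error was the same at every window, since the spread was pooled over all of them.

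The RRT15 window, whose reads came from a sequence in many copies, followed the 25S windows. Its signal was 1903 and 3301 at 0 min, 2320 and 3624 at 5 min, 1633 and 2269 at 10 min, and 983 and 1085 at 15 min. It then ran at 825 and 740 at 20 min, 1008 and 1067 at 30 min, 1036 and 899 at 45 min, and 549 and 929 at 60 min. At 60 min 28.9% and 28.1% of its 0 min signal was left. In the fit over both isolates this was the smallest fall of the region (log2 change −1.81 ± 0.27, limma adjusted p = 4.4e-11). In replicate 1 alone a 25S window kept more, at 29.4%.

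The 5S window had the smallest share of its signal left at 10 min and at 60 min. It held 168 and 277 units at 0 min, 156 and 236 at 5 min, 57.3 and 110 at 10 min, and 38.1 and 44.1 at 15 min. At 20 min it was at 32.4 and 32.2, at 30 min at 49.3 and 43.6, at 45 min at 44.4 and 39.8, and at 60 min at 24.8 and 37.1. Only 34.1% and 39.9% of the 0 min signal was left at 10 min, beside 34.8% and 30.6% at the median tRNA gene window and 50.1% and 46.0% at the median window outside, and 14.8% and 13.4% was left at 60 min. Its change at 60 min, −2.79 ± 0.27 (log2, limma adjusted p = 6.9e-24), was the largest of the 21.

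The window with the lowest ratio, 5′ETS at 0.2 kb, fell early too. Its signal was 2854 and 4460 at 0 min, 2743 and 4232 at 5 min, 1482 and 2051 at 10 min and 912 and 1107 at 15 min. It was 755 and 749 at 20 min, 1130 and 1164 at 30 min, 1126 and 998 at 45 min, and 650 and 1080 at 60 min. At 10 min 51.9% and 46.0% was left, against 50.1% and 46.0% at the median window outside. By 60 min it retained 22.8% and 24.2%, against 17.9% and 17.9% at the median window outside.

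**Figure D2:**
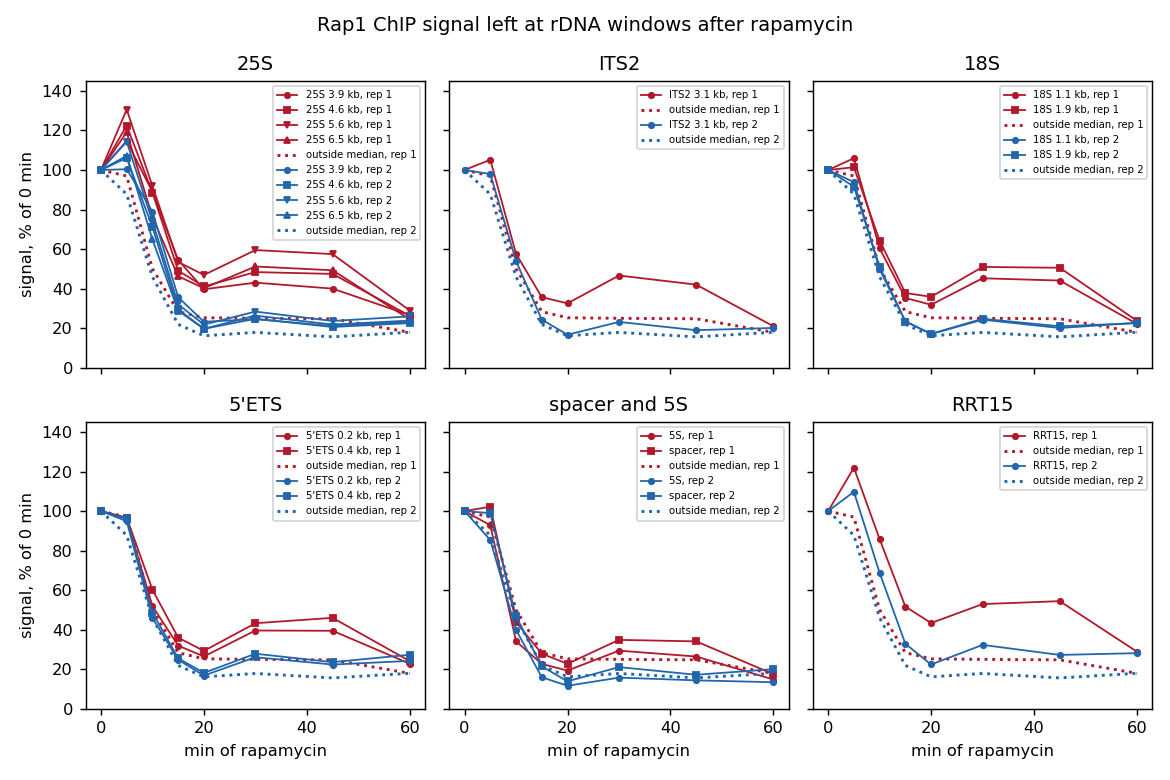
Signal as a percentage of the 0 min library of the same isolate (y axis) against minutes of rapamycin (x axis), in one panel per segment, for replicate 1 in red and replicate 2 in blue. Dotted lines are the median of the 1097 windows outside the rDNA. The 25S and RRT15 lines stay above the dotted lines at 5 and 10 min, and the 5S line ends lowest, at 14.8% and 13.4%.

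The windows did not fall evenly. In replicate 1 the median rDNA window held 35.3% of its 0 min signal at 20 min, 46.6% at 30 min, 46.0% at 45 min and 24.1% at 60 min. Replicate 2 held 17.7%, 24.8%, 21.1% and 23.2% at the same times. In both isolates the rDNA was thus higher at 30 min than at 20 min. The median tRNA gene window likewise stood at 17.8% and 11.9% at 20 min and 21.04% and 15.0% at 30 min, whereas the median window upstream of an open reading frame stood at 30.1% and 23.0% at 20 min and 23.8% and 18.8% at 30 min. Between isolates the median rDNA window of replicate 1 held 2.21 times the share of replicate 2 at 45 min, beside 1.49 times at the median window outside, and 1.04 times at 60 min. The part of these library differences in the values from 15 to 45 min was not tested.

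To separate the region from the loss common to all windows, each library was centred on its median over the windows outside the rDNA. On this scale none of the 21 windows was called at 5 min, beside 0% of all windows called higher and 0.0894% called lower. At an unadjusted limma p under 0.05, 9 were higher, and the share of all windows at that threshold was not computed. The edgeR test called 3 higher at 5 min, beside 5.28% of all windows. With the isolate as a block, the 25S window at 5.6 kb and its counterpart were called higher at 5 min (0.47 ± 0.13 and 0.47 ± 0.14, limma adjusted p = 0.045 each), beside 0.805% of all windows. At 10 min 17 of the 21 were relatively higher, beside 46.3% of all windows, and none was relatively lower, beside 26.3%. The relative change was 0.98 ± 0.11 at the TAR1 window (log2, SE; limma adjusted p = 6.6e-08), 0.85 ± 0.12 at RRT15 (limma adjusted p = 1.1e-06) and 0.43 ± 0.15 at the 18S window 1.9 kb from the start (limma adjusted p = 0.012). The windows not called were the spacer, at 0.09 ± 0.14, 5S, at −0.19 ± 0.14, and 5′ETS at 0.2 kb with its counterpart, at 0.20 ± 0.11 and 0.23 ± 0.11.

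At the later times 19 windows were relatively higher at 15 min (beside 47.3% of all windows), 17 at 20 min (47.0%), 20 at 30 min (40.4%), 19 at 45 min (39.9%) and 17 at 60 min (44.0%). None was relatively lower at any of these times, beside 25.1%, 27.0%, 20.3%, 23.7% and 25.8% of all windows in the same order of times. By the edgeR test 1 was relatively lower at 20 min, beside 33.3% of all windows, and 1 at 60 min, beside 31.9%. The counts of higher windows up to 20 min moved when single libraries were left out. Without the 0 min library of replicate 1 they were 9 at 10 min, 11 at 15 min and 9 at 20 min. Without the replicate 1 library of the later time they were 12 at 15 min and 9 at 20 min. Windows upstream of an open reading frame had a median relative change of 0.67 at 10 min and 0.05 at 60 min. That of the rDNA windows was 0.42 and 0.49. It was 0.20 and 0.13 for the windows outside themselves, whose median level moved more than their median change. Centred on that median change instead, an alternative added after the data were seen, 9 rDNA windows were relatively higher at each of 10, 15 and 20 min. Those at 10 min, beside 33.8% of all windows, were the 8 in the 25S gene and RRT15. The count was 19 at 30 and 45 min and 13 at 60 min, the last beside 39.1%. For 15, 20, 30 and 45 min no share of all windows is given on this centring. The counts at those times therefore cannot be set against the common rate. The 5S window was then relatively lower at 10, 15, 20 and 60 min, at −0.39, −0.41, −0.46 and −0.38. The limma adjusted p was 0.014, 0.0093, 0.0035 and 0.015. Of all windows 36.6% were relatively lower at 10 min and 35.7% at 60 min. The comparison also turns with what the outside is taken to be. Scaled to the summed signal of the windows outside, which kept 45.7% and 42.0% at 60 min where their median kept 17.9% and 17.9%, all 21 rDNA windows were lower at 60 min, beside 80.9% of all windows. At 60 min the median rDNA window had therefore lost a smaller share of its signal than the median window outside. It had lost a larger share than the sum, to which the strongest windows contribute most. This does not hold for every window. The 5S window kept 14.8% and 13.4%, less than the median window outside, and the spacer kept 17.5% and 20.1%.

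A comparison within the region does not use the level of the windows outside. Centred on the median rDNA window, none of the 21 windows was called at 5 min, also at an unadjusted p under 0.05, and neither was any of the 1118 (0%). At 10 min 6 of the 21 windows were relatively higher, beside 15.3% of all windows, and 1 was relatively lower, beside 41.6%. The 6 were the 25S windows at 3.9, 4.6 and 5.6 kb with their counterparts. The relative change was 0.51 ± 0.17 at the TAR1 window (log2, SE; limma adjusted p = 0.015), 0.49 ± 0.17 at 5.6 kb (limma adjusted p = 0.015) and 0.43 ± 0.17 at 4.6 kb (limma adjusted p = 0.030). The window at 6.5 kb, at the 3′ end of the 25S gene, had 0.26 ± 0.17 (limma adjusted p = 0.19), and the lower one was 5S, at −0.66 ± 0.18 (limma adjusted p = 0.0043).

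At 15 min 5 windows were relatively higher, beside 24.7% of all windows. They were the 25S windows at 3.9 and 5.6 kb with their counterparts and RRT15, the last at 0.40 ± 0.17 (limma adjusted p = 0.044). From 20 min on none was, beside 26.9% of all windows at 20 min, 13.7% at 30 min, 15.7% at 45 min and 25.2% at 60 min. At an unadjusted p under 0.05 the count over these times was also 0. The edgeR test called 4 higher at 20 min (beside 26.7% of all windows), 0 at 30 and 45 min and 2 at 60 min (24.2%). The 5S window stayed relatively lower at each later time, where 42.9% of all windows were called lower at 15 min, 42.3% at 20 min, 62.9% at 30 min, 57.4% at 45 min and 40.1% at 60 min. It was joined by the spacer at 20 min (−0.53 ± 0.19, limma adjusted p = 0.013) and was at −0.63 ± 0.18 at 60 min (limma adjusted p = 0.0046). These calls rest on 2 libraries per time. Leaving out any one of the 0 min or 10 min libraries left 0 or 1 window relatively higher at 10 min, with the same direction at the 25S windows of 3.9, 4.6 and 5.6 kb. At 15 min 2 were left without the 0 min library of replicate 1 and 0 without any one of the other 3.

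**Figure D3:**
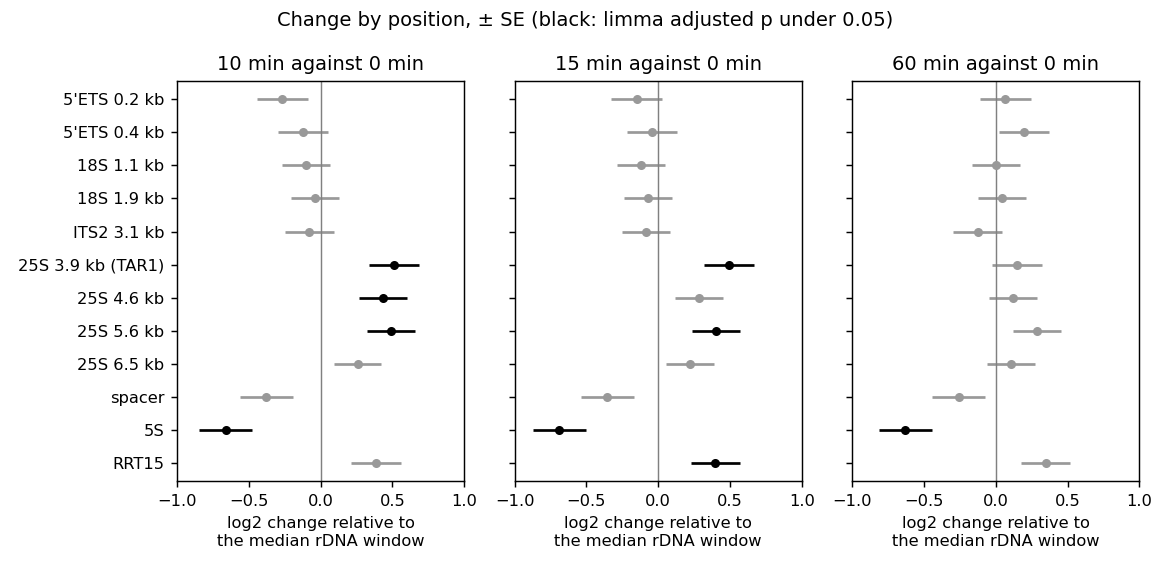
Log2 change against 0 min relative to the median rDNA window (x axis) at the 12 positions (y axis), at 10, 15 and 60 min, with bars for the standard error of the limma fit and n = 2 libraries per time. Black points passed the adjusted threshold. The 25S positions lie to the right at 10 min, by 0.26 to 0.51, and closer to 0 at 60 min, while 5S stays at −0.63 to −0.69.

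The same signals can be given as ratios within single libraries. Like the centring on the median rDNA window, these ratios need no spike-in. They come from the same libraries as that fit and are not separate support for it. The TAR1 window and its counterpart averaged 2.61 and 2.60 times the mean of the 18S windows at 0 min, 2.87 and 2.82 times at 5 min, 3.72 and 4.08 times at 10 min, and 3.89 and 3.95 times at 15 min. The ratio was then 3.07 and 3.54 at 20 min, 2.33 and 2.60 at 30 min, 2.198 and 2.69 at 45 min, and 3.02 and 2.68 at 60 min. Both isolates thus had their highest ratios at 10 and 15 min, with no overlap with the other times. The other 25S windows were at 1.03 and 1.09 times the 18S windows at 0 min, 1.43 and 1.51 times at 10 min, and 1.22 and 1.16 times at 60 min. The 5′ETS windows showed no such peak, with 0.510 and 0.465 at 0 min, 0.463 and 0.435 at 10 min, and 0.523 and 0.535 at 60 min.

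**Figure D4:**
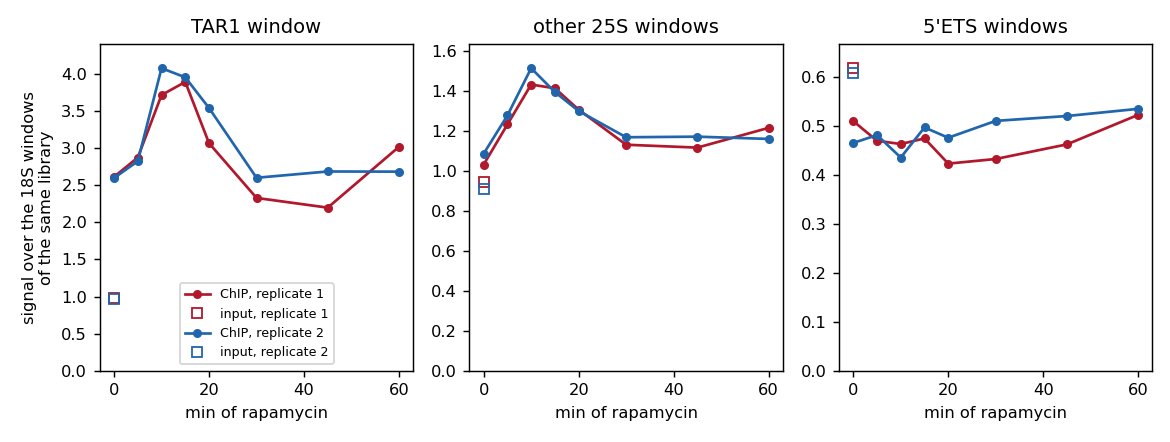
Signal of the TAR1 window, the other 25S windows and the 5′ETS windows over the mean of the 18S windows in the same library (y axis, from 0, different scales) against minutes of rapamycin (x axis), with filled points for ChIP in replicates 1 and 2 and open squares for the 0 min inputs. The TAR1 ratio peaks at 3.72 to 4.08 at 10 and 15 min, and the input squares lie at 0.975 and 0.964.

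A decay to a plateau was fitted to each window and isolate, whose inverse rate is an apparent residence time. It carries the speed of Rap1 export as well as its release. The fit reached a rate with p under 0.05 in both isolates at each of the 21 windows, beside 995 of the 1097 windows outside. The apparent residence time had a median of 10.9 min in the rDNA (range 8.78 to 16.6 min), beside 9.54 min outside. It was 15.9 min in the 25S gene, 10.9 min at ITS2, 10.3 min in the 18S gene and 9.48 min in the 5′ETS. The TAR1 window had 19.3 min in replicate 1 and 14.2 min in replicate 2, RRT15 17.4 and 12.2 min, the spacer 9.53 and 9.99 min, and 5S 8.51 and 9.06 min. Windows at tRNA genes had a median of 8.44 min and those upstream of an open reading frame 13.5 min. The standard errors of the natural log of the rate at the TAR1 window were 0.56 and 0.43, and the order of the segments is given as a description without a test.

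The fitted plateau of the rDNA was above that of the windows outside. It was 30.1% and 16.6% of the 0 min signal in replicates 1 and 2 at the median rDNA window, against 15.5% and 11.3% outside. The plateau is not the level measured at 60 min, which was 24.1% and 23.2%, against 17.9% and 17.9% outside. With the plateau set to 0 the median apparent residence time of the rDNA was 24.0 min, and without the 0 min libraries it was 4.46 min, so its length depends on how the end and the start of the course are treated.

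Windows near genes that serve the rDNA from elsewhere in the genome were taken from 3 lists. Among 17 genes of RNA polymerase I and its factors, 2 had a window within 500 bp upstream. These were RPA34, which fell by 2.62 ± 0.27 at 60 min (log2, SE; limma adjusted p = 2.4e-21), and RPA43, which fell by 0.76 ± 0.27 (limma adjusted p = 0.0054). Both encode polymerase I subunits. Among 8 genes of rDNA silencing and replication fork block, only FOB1, whose product binds the fork barrier of the spacer, had one, and it fell by 4.39 ± 0.27 (limma adjusted p = 2.2e-55). Of 15 genes of the U3 particle and early processing, 2 had one. UTP15 fell by 3.13 ± 0.27 (limma adjusted p = 2.1e-29) and UTP4 fell by 3.79 ± 0.27 (limma adjusted p = 4.3e-42). These falls stand beside a median of −2.05 for the rDNA windows and −2.40 for all windows at 60 min.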

How the data were processed

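Rap1 ChIP-seq was analysed in 16 ChIP and 2 input libraries of the 24 samples; the untagged and sir4Δ libraries were not analysed here. Reads were aligned by the authors with Bowtie2 to a joined S. paradoxus and modified sacCer3 genome, and windows were peaks called by MACS at 0 min over an untagged control. The deposited signal is reads per window per 1000000 S. paradoxus reads. The deposited S. paradoxus read counts are whole-library totals without the rDNA. How multiply matching reads were placed is not given in the sources used here. Of the per-sample columns, 14 of other inputs were not used, and 1 table line is no window.

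For each time against 0 min, log2(signal + 1) of all 16 ChIP libraries was fitted by limma 3.58.1 (R 4.3.3) with 1 coefficient per time and no block. P-values were 2-sided and adjusted by Benjamini-Hochberg over 1118 windows at a threshold of 0.05. The same fit was run after centring each library on the median of the windows outside the rDNA or of the rDNA windows. Log2 ChIP over input was centred on the median window of each isolate. A fold change on the log2(signal + 1) scale understates that of low windows. Signal times the S. paradoxus reads was within 0.01 of a whole number for 100% of the values, and these reads were also tested with edgeR 4.0.16 (quasi-likelihood, the same scaling as an offset), which called 827 of 1118 windows lower at 10 min. Decays were fitted with nls and SSasymp. The scripts were tested on simulated data. Figures used Python 3.11.15 and matplotlib 3.10.9.

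Replicate numbers pair the libraries, because a number stands for 1 strain isolate in the labels. Deviations from the time means correlated within an isolate by −0.208 to 0.407 over 28 pairs of times (median 0.168). Nothing says that the isolates were grown as separate cultures at each time, so p-values measure the spread between these libraries.

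The windows, gene lists and tests were chosen with earlier results of these data known. The naming rule accounts for every window and gives each library's value for the TAR1 and RRT15 windows, those with the highest and lowest ChIP over input, and those with the largest and smallest change at 60 min. Alternatives were pseudocounts of 0.1 and 5, a signal minimum of 50, a replicate block, a variance trend, scaling to the total outside, other centrings, decay settings and leaving out libraries. A planned search for Rap1 motifs and sequences needs a genome and was not run here. Gene positions came from the R64 annotation.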

Additional observations from a re-analysis of the deposited data

How the results depend on the processing

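Counts of rDNA windows lower than at 0 min were the same or within 1.5 times under the pseudocounts, signal minimum, variance trend and block. The fall at 10 min (12 windows) ranged from 4 to 19 with one library left out. Relative to the windows outside, with one library left out, 9 to 15 windows were higher at 10 min, 11 to 19 at 15 min and 9 to 16 at 20 min, and 0 to 1 was lower at 10 min. A pseudocount of 5 gave 10 higher at 15 min, 9 higher and 1 lower at 20 min and 1 lower at 60 min. Centred on the median change, 9 were higher and 1 lower at each of 10, 15 and 20 min, and 1 was lower at 60 min. The edgeR test on whole reads gave 3 higher at 5 min and 1 lower at 20 and at 60 min. The replicate block gave 2 higher at 5 min, and changed no other call on a named position beyond the 25S window at 6.5 kb.

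Scaled to the total outside, the direction turned. From 10 to 60 min 0 windows were higher, and 11, 18, 21, 18, 18 and 21 were lower. Of all windows 80.9% were lower at 60 min on that scale. For the earlier times no share of all windows is given, so those counts cannot be set against the common rate. The median window outside fell further on that scale, by a log2 change of −0.61 at 10 min and −1.27 at 60 min. The median of the rDNA windows was at −0.38 and −0.86. On that scale the changes at 10 min were −0.081 at 25S 6.5 kb, −0.42 at ITS2, −0.38 and −0.44 at 18S 1.9 and 1.1 kb, −0.46 and −0.61 at 5′ETS 0.4 and 0.2 kb and −0.72 in the spacer. At 60 min they were −0.86, −0.68, −0.85 and −0.82 at 25S 6.5, 5.6, 4.6 and 3.9 kb, −1.09 at ITS2, −0.92 and −0.97 at 18S, −0.77 and −0.90 at 5′ETS, −1.22 in the spacer and −0.62 at RRT15. The median log2 change of the rDNA windows was then −0.38, −0.85, −1.02, −0.56, −0.51 and −0.86 from 10 to 60 min, against −0.81, −1.75, −2.02, −1.55, −1.68 and −2.05. The summed signal outside kept 45.7% and 42.0% at 60 min, where the median window outside kept 17.9% and 17.9%. By isolate the median at 60 min was −2.05 and −2.11.

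Relative to the median rDNA window, leaving out one library left 0 to 1 window higher at 10 min, 0 to 2 at 15 min, 0 to 1 lower at 10 min and 1 to 2 lower at 20 min. A pseudocount of 5 gave 2 higher at 15 min, and centring on the median change gave 2 higher at 20 min. The edgeR test gave 4 higher at 20 min and 2 at 60 min, and 2 lower at each of 10, 15, 30 and 45 min. In ChIP over input, 2 windows were above the median with a pseudocount of 0.1 and with an input minimum of 50, and 0 with a pseudocount of 5 and when centred on the windows outside. The median apparent residence time of 10.9 min became 24.0 min with the plateau at 0, 4.46 min without the 0 min sample and 10.1 min on the scale of the total, where 15 of 21 windows could be fitted. For the other moved values the cause was not tested. With 2 libraries per time and 217 reads at least in the 5S window, a change against 0 min under about 2 standard errors (0.27 each, log2) was not detectable.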
